A study of Mus musculus with 48 samples.

Results

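Mitochondrial ribosomal protein genes were taken as every gene in the deposited expression table whose symbol begins with Mrpl or Mrps followed by a digit, with pseudogene symbols ending in -ps left out. This gave 78 genes of 34617 in the table, 49 named Mrpl and 29 named Mrps. They were followed in 24 clonal ER-Hoxb8 lines from mouse bone marrow, each sequenced once as a granulocyte-monocyte progenitor (GMP) culture and once as a monocytic culture, which gave 48 RNA-seq libraries. ER-Hoxb8 cells carry the transcription factor Hoxb8 fused to the estrogen receptor hormone-binding domain, and active Hoxb8 holds them as dividing progenitors. Every library, progenitor or monocyte, therefore comes from cells made with ER-Hoxb8. The labels name the same medium for both states, RPMI with serum, antibiotics and stem cell factor, and they do not name the step that started maturation. Each line is 1 clone, and the labels give neither the mouse, its age and strain, nor any repeat library of a clone in a state. The comparison asks how each gene differs between the progenitor and the monocytic culture of the same clone.

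Mitochondria hold their own ribosomes, which translate the few respiratory chain proteins encoded by mitochondrial DNA. The RNA of these ribosomes is made inside the organelle, while all of their proteins are encoded in the nucleus, made in the cytosol and imported. Some of the proteins descend from bacterial ribosomal proteins and others are found only in mitochondria. The large subunit carries out peptide bond formation and the small subunit decodes the messenger RNA. Names do not always give the place: the proteins of Mrps18a and Mrps30 sit in the large subunit, and Mrps36 encodes a subunit of the 2-oxoglutarate dehydrogenase complex rather than a ribosomal protein. By structure, 51 of the genes belonged to the large subunit, 26 to the small subunit and Mrps36 to neither.

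Levels are in TPM, a measure of transcript abundance that is corrected for transcript length and scaled to the same total in every library. Fold changes compare monocyte with progenitor on log2(TPM + 1) and come from a limma fit with clone as a block over the 11072 genes whose mean reached 1 TPM, and p-values are adjusted over all of these genes by the Benjamini-Hochberg method with a threshold of 0.05. A gene is said to have fallen or risen only where it passed that threshold.

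The labelled cell types were checked with marker genes. All 5 progenitor markers fell and all 6 monocyte markers rose, but all 5 neutrophil markers rose as well. The summed monocyte marker level was 26.3 to 1333 TPM in progenitors, with a median of 90.1. In monocytes it was 2128 to 20718 TPM, with a median of 11809, below that of the neutrophil markers. The summed neutrophil marker level ran from 0.763 to 10680 TPM in progenitors, with a median of 9.48, and from 339 to 183022 TPM in monocytes, with a median of 72868. None of the 5 was at 0 throughout either state. Of the 5 mast cell and basophil markers, 4 were tested and fell, from a median sum of 1426 TPM to 40.2 TPM. The 3 eosinophil markers all rose, from a median sum of 0.886 TPM to 118 TPM, with up to 1155 TPM in a monocyte library. Of the 4 erythroid markers, 2 were tested and fell, from a median sum of 3.42 TPM to 0.228 TPM, and Hba-a1 was listed at 0 in every monocyte library. Lymphoid markers stayed at or under a sum of 1.32 TPM in every library, with Cd3e listed at 0 in all of them. Proliferation markers fell for 4 of 5 genes, Mki67 being the exception, with median sums of 469 and 278 TPM. Mitochondrially encoded transcripts took 3.44 to 16.7% of TPM in progenitors and 1.98 to 25.1% in monocytes. In bulk libraries fewer cells of a type and less RNA per cell cannot be told apart.

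Most mitochondrial ribosomal protein genes were lower in monocytes. All 78 passed the filter on low values; 59 of them fell (75.6%), 2 rose and 17 did not pass the test. Over all genes tested, 36.5% fell and 32.4% rose. The median log2 fold change was -0.60 for the 78 genes and -0.06 for all genes tested, and the single genes ran from -1.65 to 0.59. A fall of at least 2-fold was seen for 14 genes (17.9%), against 13.3% of all genes tested. A further 30 fell by 0.5 to 1 on the log2 scale and 15 by less than 0.5. In 20 or more of the 24 clones, 51 genes were lower in the monocyte library (26.6% of all genes tested), and Mrps31 and Mrpl38 were lower in all 24. The ranges of the libraries overlapped between states for every one of the 78 genes, while 0.56% of all genes tested were lower and 1.14% higher without overlap.

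Summed over the 78 genes, the level was 5461 ± 737 TPM in progenitors and 4364 ± 785 TPM in monocytes (mean ± SD, n = 24 each). The lowest, median and highest sums were 3341, 5551 and 6759 TPM in progenitors and 2732, 4263 and 6288 TPM in monocytes. The groups overlapped, and the overlap came from clones numbered 15 to 26.

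**Figure D1:**
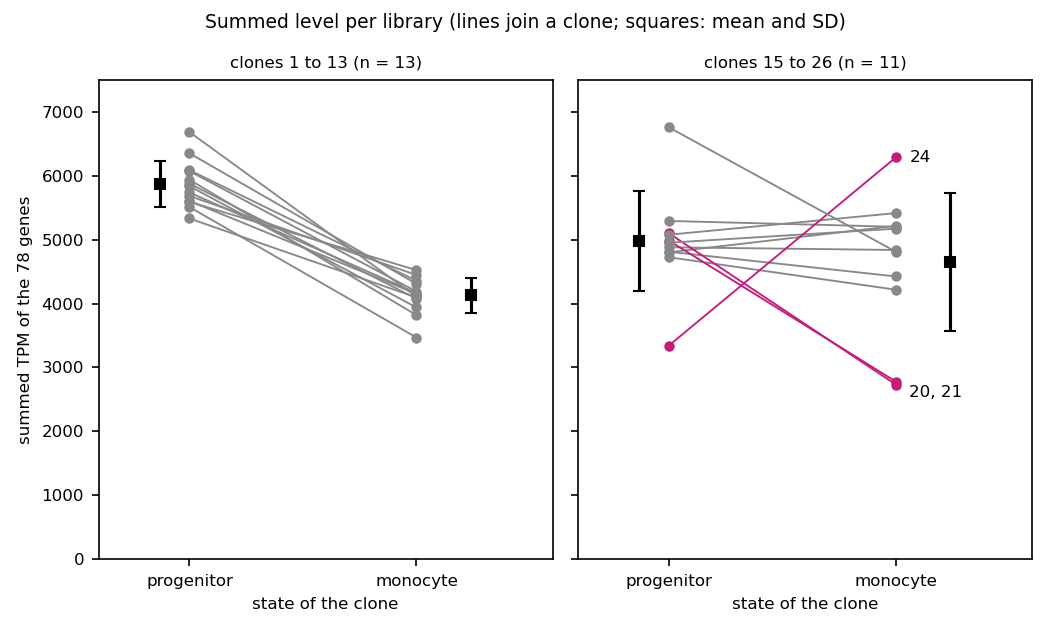
Summed TPM of the 78 genes (y axis, from 0) in the progenitor and monocyte library of each clone (x axis), in clones 1 to 13 and clones 15 to 26; lines join the libraries of a clone and squares give the mean with the SD. All 13 lines in the first set go down, while in the second set the lines of clones 17, 22, 23 and 24 go up, by 1.09, 1.04, 1.07 and 1.88 times, clone 24 from 3341 to 6288 TPM, and clones 20 and 21 end lowest, at 2732 and 2779 TPM.

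The deposited values are relative, and removing mitochondrial transcripts, gene models named Gm and pseudogenes before rescaling moved the median of all genes tested from -0.06 to -0.25. On that scale 69 of the 78 genes fell, among them all 59 of the first fit, 1 rose, and the median was -0.85 (all genes: 45.9% fell and 28.2% rose).

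**Figure D2:**
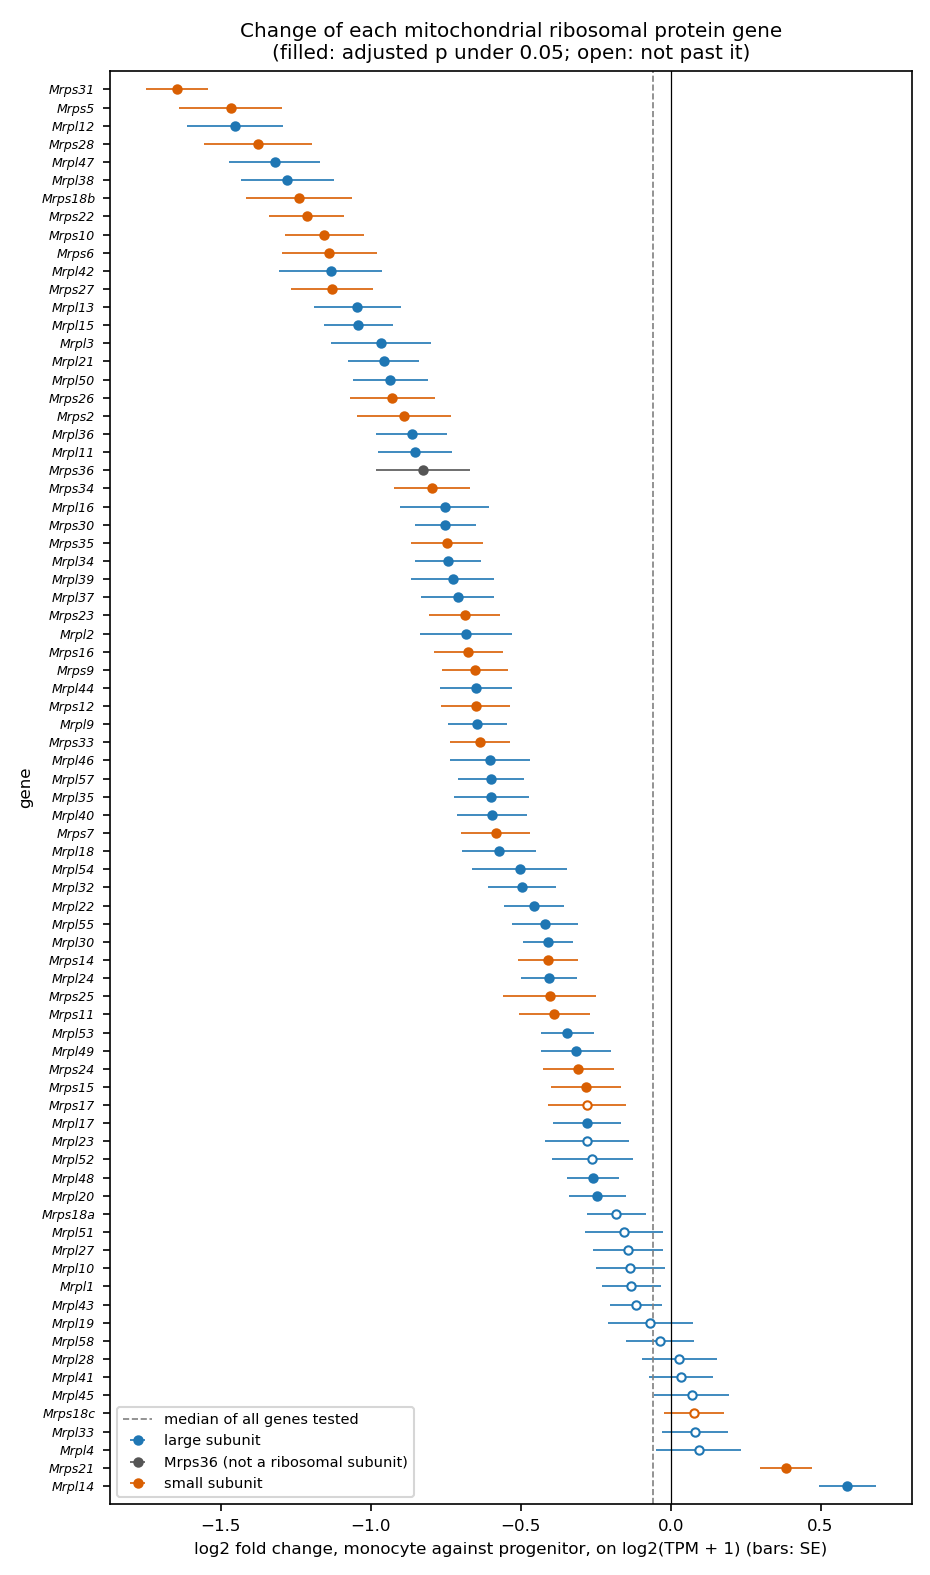
Log2 fold change between states with its standard error (x axis) for each of the 78 genes (y axis), coloured by subunit; filled points passed the test and open points did not, and the dashed line marks the median of all genes tested. The points run from -1.65 for Mrps31 to 0.59 for Mrpl14, with 17 open points near 0.

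In the large subunit 35 of 51 genes fell, 1 rose and 15 did not pass, with a median log2 fold change of -0.50. Of the 35, 6 fell at least 2-fold: Mrpl12, Mrpl47, Mrpl38, Mrpl42, Mrpl13 and Mrpl15. Mrpl12 encodes the stalk protein that recruits translation factors and is also known to bind the mitochondrial RNA polymerase. Its level was 38.8 TPM in the lowest progenitor library, 77 at the median and 91.2 in the highest, and 5.17, 25.8 and 54.3 TPM in monocytes. Only 3 monocyte libraries reached into the progenitor range. The log2 fold change of Mrpl12 was -1.45 (SE 0.16, limma adjusted p = 6.60e-09), and it was lower in 23 of 24 clones. Mrpl47, a protein related to bacterial L29 that lies near the exit of the peptide tunnel, had 14.3, 18.8 and 25.7 TPM in progenitors and 1.04, 6.43 and 18.4 TPM in monocytes. Its log2 fold change was -1.32 (SE 0.15, limma adjusted p = 1.24e-08), again lower in 23 clones.

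Levels of large subunit genes differed widely from each other. Mrpl23, a protein of the tunnel exit, had the lowest mean of the 78 genes. It was listed at 0 in the progenitor library of clone 21, the only 0 among all values of the family, and its median was 1.50 TPM in progenitors and 0.949 TPM in monocytes. The change of Mrpl23 did not pass (-0.28, SE 0.14, limma adjusted p = 0.0772), though it did without clone 8 (adjusted p = 0.0427) or clone 24 (adjusted p = 0.0313), and after the rescaling (-0.46, adjusted p = 0.0173). Mrpl11, a protein of the centre that stimulates the translation GTPases, had medians of 7.32 and 3.54 TPM and fell by 0.85 on the log2 scale (SE 0.12, limma adjusted p = 7.11e-07). Mrps30, a mitochondria-specific large subunit protein, had medians of 7.44 and 4.08 TPM and fell by 0.75 (SE 0.10, limma adjusted p = 2.01e-07). Both were lower in 23 of 24 clones.

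The most abundant member was Mrpl52, a mitochondria-specific large subunit protein. Its lowest, median and highest values were 364, 808 and 1137 TPM in progenitors and 246, 654 and 1666 TPM in monocytes, so the monocyte libraries spanned the whole progenitor range. The change did not pass in all clones (-0.26, SE 0.13, limma adjusted p = 0.0858); it passed without clone 15 (adjusted p = 0.0317), clone 23 (adjusted p = 0.0465) or clone 24 (adjusted p = 0.0271). It also passed after the rescaling (-0.51, adjusted p = 0.00212) and in clones 1 to 13 alone (-0.55, adjusted p = 0.00151). Mrpl18, related to the bacterial L18 that binds ribosomal RNA, had 295, 520 and 832 TPM in progenitors and 162, 332 and 553 TPM in monocytes. It fell by 0.57 on the log2 scale (SE 0.12, limma adjusted p = 2.00e-04) and was lower in 19 clones. Together with Mrps21 and Mrps18c, these genes held 38.7% of the family's TPM in progenitors and 46.0% in monocytes.

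Among the 15 large subunit genes that did not pass, Mrpl33 and Mrpl58 were chosen for their level. Mrpl33, a small protein with a bacterial homolog, had medians of 143 and 166 TPM and a log2 fold change of 0.08 (SE 0.11, limma adjusted p = 0.522). Mrpl58, also named Ict1, is a peptidyl-tRNA hydrolase built into the large subunit that frees stalled ribosomes; its medians were 69.4 and 64.8 TPM and its log2 fold change was -0.03 (SE 0.11, limma adjusted p = 0.797). Mrpl58 passed downward after the rescaling (-0.28, adjusted p = 0.0238) and in clones 1 to 13 alone (-0.21, adjusted p = 0.0426).

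In the small subunit 23 of 26 genes fell, 1 rose and 2 did not pass, with a median log2 fold change of -0.68. The 10 genes found only in mitochondria all fell, with a median of -0.86, and 13 of the 16 with bacterial homologs fell, with a median of -0.62. Falls of at least 2-fold were seen for Mrps31, Mrps5, Mrps28, Mrps18b, Mrps22, Mrps10, Mrps6 and Mrps27. Mrps31, a mitochondria-specific protein of the head of the small subunit, had 6.12, 17.8 and 29.7 TPM in progenitors and 1.91, 4.96 and 8.02 TPM in monocytes. The groups touched at 1 end: only the progenitor libraries of clones 21 and 24 lay under the highest monocyte library. Its log2 fold change of -1.65 (SE 0.10, limma adjusted p = 7.73e-14) had the largest size in the family and was nearly the same in clones 1 to 13 (-1.64) and 15 to 26 (-1.65).

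Mrps5 encodes a homolog of bacterial S5, which lines the messenger RNA entry channel. Its level was 18.5, 55.6 and 73.2 TPM in progenitors and 4.12, 18.6 and 49.5 TPM in monocytes, a log2 fold change of -1.47 (SE 0.17, limma adjusted p = 1.85e-08). Mrps28, a small subunit protein counted with bacterial S1, had 13, 24.8 and 35.7 TPM in progenitors and 1.81, 8.64 and 25.2 TPM in monocytes, a log2 fold change of -1.38 (SE 0.18, limma adjusted p = 1.18e-07). For both genes the lowest progenitor library was that of clone 24 and the lowest monocyte library that of clone 21. Mrps17, whose bacterial relative S17 binds ribosomal RNA, had medians of 90.5 and 72.9 TPM and missed the threshold (-0.28, SE 0.13, limma adjusted p = 0.0564); it passed without clone 21 (adjusted p = 0.0364) or clone 24 (adjusted p = 0.00261), after the rescaling (-0.53, adjusted p = 3.70e-04) and in clones 1 to 13 alone (-0.23, adjusted p = 0.0451).

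Mrpl14 and Mrps21 rose. Mrpl14 encodes a homolog of bacterial L14, which faces the small subunit. It had 22.3, 45.2 and 80.4 TPM in progenitors and 43.3, 67.9 and 92.6 TPM in monocytes, and it was higher in the monocyte library in 22 of 24 clones. The log2 fold change was 0.59 (SE 0.09, limma adjusted p = 3.52e-06), and Mrpl14 passed the test upward on each scaling tried. Mrps21, a homolog of bacterial S21 in the small subunit, had 255, 413 and 697 TPM in progenitors and 325, 515 and 869 TPM in monocytes, and was also higher in 22 clones. Its log2 fold change was 0.39 (SE 0.09, limma adjusted p = 3.24e-04). The rise of Mrps21 did not pass after the rescaling without mitochondrial, Gm and pseudogene transcripts (0.13, adjusted p = 0.233) or after centring each library on its median (0.31, adjusted p = 0.0525).

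The Mrps18 paralogs, 3 nuclear genes related to 1 bacterial protein, S18, had different values. Mrps18b encodes a small subunit protein now counted as mitochondria-specific. It had 31.5, 67.5 and 112 TPM in progenitors and 6.61, 27.8 and 78.6 TPM in monocytes, and fell by 1.24 on the log2 scale (SE 0.18, limma adjusted p = 5.95e-07). Mrps18c holds the place of S18 in the small subunit. It had 259, 405 and 537 TPM in progenitors and 289, 427 and 589 TPM in monocytes; its log2 fold change was 0.08 (SE 0.10, limma adjusted p = 0.503), with 12 clones higher and 12 lower. The sign of Mrps18c turned under the rescaling (-0.17, adjusted p = 0.198). Mrps18a, whose protein sits in the large subunit, had medians of 24.5 and 20.7 TPM and a log2 fold change of -0.18 (SE 0.10, limma adjusted p = 0.101), which passed without clone 24 (-0.24, adjusted p = 0.00690), after the rescaling (-0.43, adjusted p = 5.69e-04) and in clones 1 to 13 alone (-0.21, adjusted p = 0.0483). The differences between the paralogs' changes were not tested.

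**Figure D3:**
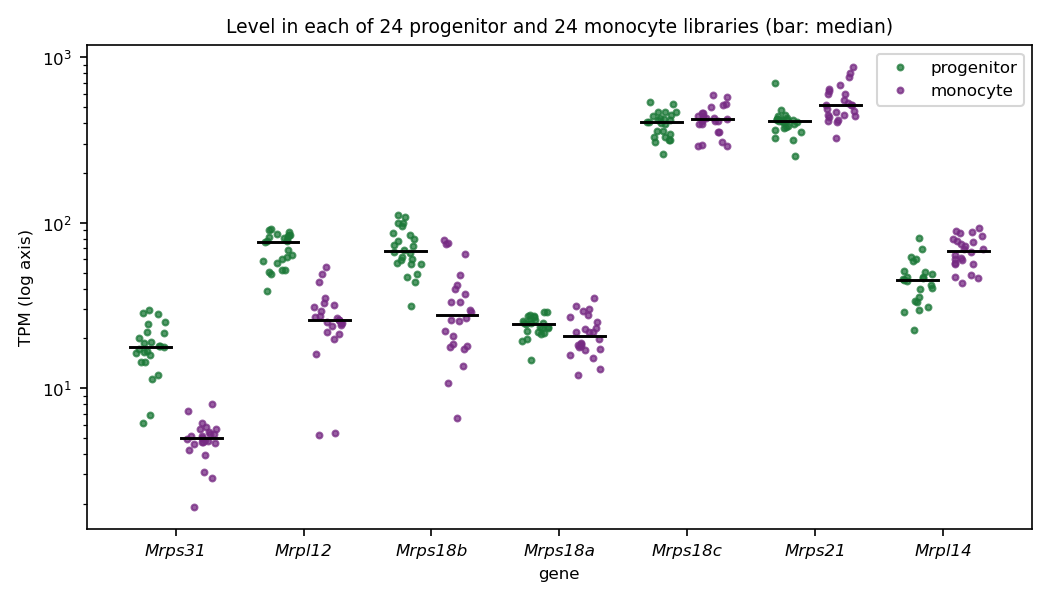
TPM on a log axis (y axis) of 7 genes (x axis) in each of 24 progenitor and 24 monocyte libraries, with bars at the medians. Mrps31, Mrpl12 and Mrps18b drop between states with little to moderate overlap, Mrps18a and Mrps18c overlap almost fully, and Mrps21 and Mrpl14 shift upward from medians of 413 and 45.2 TPM to 515 and 67.9 TPM.

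Start regions are shown for the gene with the deepest fall, the 2 that rose and the Mrps18 paralogs, since these carry the contrast within the family. Each sequence is the RefSeq GRCm38.p6 window of 280 bases, 250 before the annotated start and 30 from it, written 5′ to 3′ on the gene's strand. Capitals mark matches on either strand to the core letters of NRF1, of ETS factors such as GABP, of YY1, of the E-box or of the CCAAT box, which are known from promoters of nuclear genes for mitochondrial proteins.
Mrps31 (chr8:22411090-22411369, plus strand): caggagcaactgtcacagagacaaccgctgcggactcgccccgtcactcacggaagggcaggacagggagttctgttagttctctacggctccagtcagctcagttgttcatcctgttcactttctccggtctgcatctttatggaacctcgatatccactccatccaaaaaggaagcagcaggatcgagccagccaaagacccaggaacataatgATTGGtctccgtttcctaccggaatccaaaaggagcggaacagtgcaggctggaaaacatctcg
Mrpl14 (chr17:45686099-45686378, plus strand): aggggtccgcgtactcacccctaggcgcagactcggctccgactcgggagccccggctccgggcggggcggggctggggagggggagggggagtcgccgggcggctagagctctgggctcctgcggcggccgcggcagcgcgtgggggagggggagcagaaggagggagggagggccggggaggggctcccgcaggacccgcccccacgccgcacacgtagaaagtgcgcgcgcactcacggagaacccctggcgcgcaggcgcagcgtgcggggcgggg
Mrps21 (chr3:95871485-95871764, minus strand): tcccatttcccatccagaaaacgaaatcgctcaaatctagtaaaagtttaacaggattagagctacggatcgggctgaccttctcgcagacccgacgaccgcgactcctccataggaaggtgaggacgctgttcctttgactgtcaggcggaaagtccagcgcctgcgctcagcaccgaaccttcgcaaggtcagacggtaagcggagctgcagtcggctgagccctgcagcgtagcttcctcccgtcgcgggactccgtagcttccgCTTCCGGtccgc
Mrps18a (chr17:46110754-46111033, plus strand): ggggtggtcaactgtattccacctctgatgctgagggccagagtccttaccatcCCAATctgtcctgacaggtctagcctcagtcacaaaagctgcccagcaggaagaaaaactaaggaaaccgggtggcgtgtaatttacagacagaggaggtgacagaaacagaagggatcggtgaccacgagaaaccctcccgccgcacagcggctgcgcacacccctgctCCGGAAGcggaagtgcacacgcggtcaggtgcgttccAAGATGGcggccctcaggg
Mrps18b (chr17:35916411-35916690, minus strand): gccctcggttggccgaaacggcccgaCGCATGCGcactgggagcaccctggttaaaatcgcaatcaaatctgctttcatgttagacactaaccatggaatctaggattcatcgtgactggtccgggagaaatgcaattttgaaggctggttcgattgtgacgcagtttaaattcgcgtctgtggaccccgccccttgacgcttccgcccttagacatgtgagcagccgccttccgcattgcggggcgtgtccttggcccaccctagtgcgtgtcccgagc
Mrps18c (chr5:100798509-100798788, plus strand): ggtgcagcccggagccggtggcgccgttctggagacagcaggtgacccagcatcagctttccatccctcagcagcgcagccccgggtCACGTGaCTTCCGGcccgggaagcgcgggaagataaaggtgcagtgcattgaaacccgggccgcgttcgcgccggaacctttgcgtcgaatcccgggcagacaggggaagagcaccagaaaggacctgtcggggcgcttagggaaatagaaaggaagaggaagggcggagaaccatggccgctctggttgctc
Among 69 of the 78 genes with a window, the ETS core CCGGAAG was present in 33.3%, against 19.96% of 7977 tested genes and 8.70% of all 27025 windows. In 65 windows of cytosolic ribosomal protein genes the ETS share was 36.9%. The YY1 core AAGATGG was found in 14.5% of the family's windows, 6.57% of those of tested genes and 5.74% of all. The NRF1 core, searched as the letters GCATGCG, stood in 11.6%, 6.93% and 3.49% of the same windows. The E-box, searched as the letters CACGTG, stood in 7.25%, 10.4% and 6.89%. The CCAAT box, searched by its own letters, stood in 36.2%, 39.1% and 36.6%. The GC box, searched as the letters GGGCGG and not capitalised above, stood in 49.3%, 63.7% and 34.9%. The TATA box, searched as the letters TATAAA and not capitalised either, stood in 5.80%, 6.44% and 13.7%. Mrpl14 held none of the 5 capitalised motifs in its window, and the pair of NRF1 matches of Mrps18b overlap each other. The median log2 fold change was -0.45 for the 23 genes with the ETS letters and -0.60 for the 46 without. It was -0.68 for the 25 genes with a CCAAT box and -0.41 for the 44 without. With and without the letters, the medians were -0.48 and -0.60 for NRF1, -0.54 and -0.60 for YY1. They were -0.68 and -0.59 for the E-box, -0.58 and -0.64 for the GC box and -0.46 and -0.60 for the TATA box. These differences were not tested. A match is a match of letters only; binding was not measured.

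All 78 genes are annotated as protein-coding in GENCODE M21 (GRCm38) and lie on 17 chromosomes, at most 11 on any one of them. Mrps31 lies at chr8:22411361-22429665 on the plus strand, Mrpl14 at chr17:45686322-45698495 on the plus strand and Mrps21 at chr3:95862634-95871519 on the minus strand. Exons of 33 of the genes overlap those of another annotated gene, 28 of them on the opposite strand, and the labels do not say whether quantification used the strand. Of the 33, 24 fell, and of the 45 without overlap 35 fell, with medians of -0.57 and -0.64. Mrpl14, Mrpl12, Mrpl47, Mrpl18, Mrps18b, Mrps30 and Mrpl58 are among those with an opposite-strand overlap, and Mrpl33 and Mrps18c overlap a gene model on the same strand, so their values are less certain.

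Across the 78 genes, levels kept nearly the same order in both states (Spearman rho 0.93 between mean TPM). Genes with shorter transcripts had higher TPM (rho -0.44 with the shortest coding transcript), and the correlation of the log2 fold change with mean TPM was 0.28. These are descriptions across genes of 1 set of libraries, and genes are not independent replicates. Within a library, the median TPM of large subunit genes over that of small subunit genes was 1.05 ± 0.125 in progenitors and 1.31 ± 0.199 in monocytes (mean ± SD, n = 24 each).

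Genes that act with the mitochondrial ribosome were also mostly lower in monocytes. As a background for these lists, 36.5% of all genes tested were lower and 32.4% higher, and their median was -0.06. Of 5 further ribosome subunits with other symbols, 4 fell and Aurkaip1 rose (0.34, SE 0.08, limma adjusted p = 7.53e-04). Ptcd3, which encodes the small subunit protein mS39, had 6.53, 22.5 and 55.3 TPM in progenitors and 5.06, 7.70 and 17.8 TPM in monocytes, and fell by 1.52 (SE 0.15, limma adjusted p = 4.93e-10). Among 25 assembly factors tested, 15 fell and Mterf4 rose, with a median of -0.26. The GTPases Mtg1 and Noa1 both fell by 1.48. Of 13 translation factors 10 fell and 3 did not pass, with a median of -0.52; Tsfm, the nucleotide exchange factor of the elongation factor Tu, fell by 1.14, and Guf1, the LepA-type GTPase, by 0.92. Of 19 mitochondrial aminoacyl-tRNA synthetases and related enzymes 16 fell and 3 did not pass, with a median of -0.66, led by Rars2 (-1.59) and Yars2 (-1.54).

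The machinery that copies and transcribes mitochondrial DNA showed a like count, with 12 of 16 genes lower and 1 higher. Tfam, which packages mitochondrial DNA and starts its transcription, had 14.4, 44.1 and 61.9 TPM in progenitors and 7.02, 18.6 and 30.5 TPM in monocytes, and fell by 1.27 (SE 0.12, limma adjusted p = 2.36e-10). Supv3l1, an RNA helicase of the mitochondrial degradosome, fell by 1.37 and the DNA polymerase gene Polg rose by 0.63. Of 7 tested nuclear regulators 3 fell, 1 rose and 3 did not pass, with a median of -0.10. Over all genes tested 36.5% fell and the median was -0.06, so as a list the regulators lay near all genes. Myc, a driver of growth and ribosome synthesis, had 9.76, 57.2 and 148 TPM in progenitors and 0.629, 7.26 and 61.5 TPM in monocytes, and fell by 2.84 (SE 0.31, limma adjusted p = 4.15e-09). Gabpb1 and Pprc1, the PGC-1-related coactivator, fell by 0.56 and 0.82, while Esrra rose by 0.43. Ppargc1b, under the filter on low values, had means of 0.617 and 0.186 TPM. Neither of the 2 ribosomal RNAs of the mitochondrial ribosome was found among the deposited values, so they could not be followed.

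**Figure D4:**
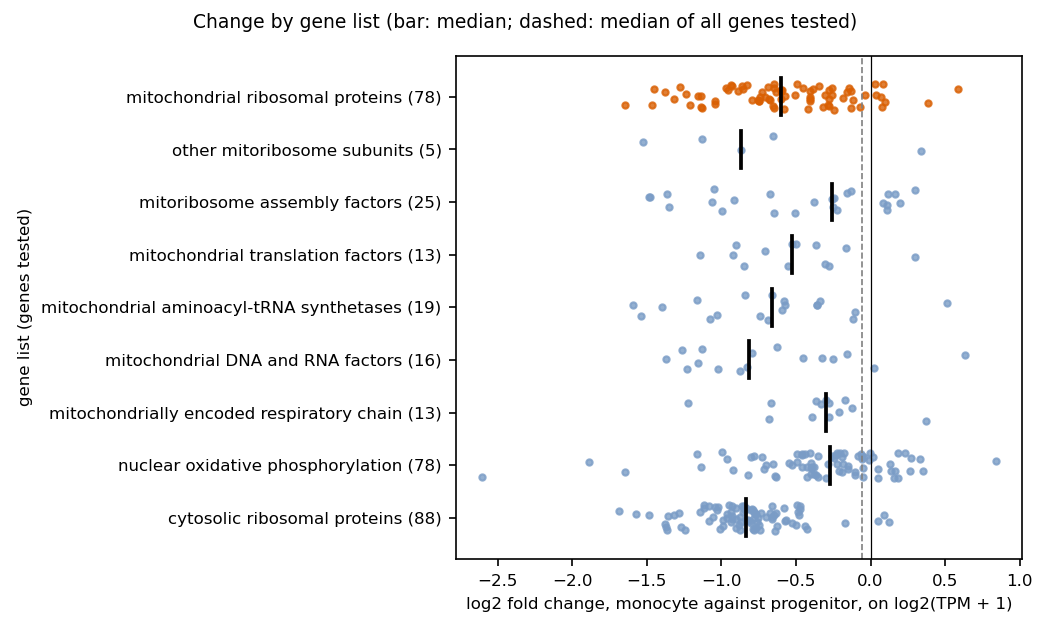
Log2 fold change between states (x axis) of each tested gene in 9 lists (y axis, number tested in brackets), with bars at the list medians and a dashed line at the median of all genes tested. The mitochondrial ribosomal proteins centre on -0.60, between the cytosolic ribosomal proteins at -0.84 and the nuclear respiratory chain genes at -0.27.

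Set beside other large complexes, cytosolic ribosomal protein genes fell in 84 of 88 tested, with a median of -0.84 (all genes: 36.5% and -0.06). Nuclear genes of oxidative phosphorylation fell in 43 of 78 tested and rose in 5 (Ndufv3, Ndufb3, Cox7a1, Cox7a2l and Ndufa8), with a median of -0.27. As a share of the summed TPM of cytosolic ribosomal proteins, the mitochondrial ones made up 3.34 ± 0.643% in progenitors and 4.88 ± 1.37% in monocytes. As a share of nuclear oxidative phosphorylation TPM they made up 28.5 ± 2.46% and 29.0 ± 2.29%. The means were 27.2% and 28.4% in clones 1 to 13 and 30.2% and 29.7% in clones 15 to 26. The difference within clones was not tested. Of the 13 mitochondrially encoded messenger RNAs, 5 fell, a share near the 36.5% of all genes tested, mt-Co1 rose and 7 did not pass. Their TPM over that of the 78 genes was 16.8 ± 9.98 in progenitors and 17.7 ± 11.4 in monocytes, and it differed more between sets of clones, at 9.86 and 12.5 in clones 1 to 13 and 25.1 and 23.9 in clones 15 to 26.

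The clones fall into 2 runs of numbers, 1 to 13 and 15 to 26, and the fall of the family differed in evenness between them. The labels name no batch, so the runs are described by their numbers only. In clones 1 to 13 the summed level was 5871 ± 366 TPM in progenitors and 4127 ± 277 TPM in monocytes (n = 13), without overlap, and each clone had 66 to 75 of the 78 genes lower in its monocyte library. In clones 15 to 26 the sums were 4976 ± 782 and 4645 ± 1079 TPM (n = 11) and overlapped, and 5 to 73 genes were lower. The share of all genes tested that was lower was not counted per clone. The median difference per clone was -0.87 to -0.47 for the family in clones 1 to 13, against -0.83 to 0.43 over all genes tested. In clones 15 to 26 it was -1.26 to 0.84, against -0.67 to 1.14. Fitted apart, clones 1 to 13 had 67 genes that fell and 1 that rose (all genes: 32.8% and 38.8%), with a median of -0.73 against 0.08 for all genes tested. Clones 15 to 26 had 25 that fell and 2 that rose (all genes: 27.4% and 17.8%), with a median of -0.44 against -0.22. The median standard error was 0.09 in the first run and 0.23 in the second.

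The difference of the change itself was tested as an interaction in limma. It passed for 3 of the 78 genes (3.85%), against 11.5% of all genes tested. For all 3 the change was the more positive in clones 15 to 26; over all genes tested 1.66% passed in that direction and 9.79% in the other. Mrps36, the dehydrogenase subunit, had progenitor means of 61.5 and 34.7 TPM and monocyte means of 25.5 and 27.1 TPM in clones 1 to 13 and 15 to 26. Its log2 fold change was -1.24 in the first run and -0.34 in the second, a difference of 0.89 (SE 0.27, limma adjusted p = 0.0344). Mrps16, a homolog of bacterial S16, known for its role in small subunit assembly, had progenitor means of 35.2 and 23.9 TPM and monocyte means of 17.7 and 20.1 TPM. Its changes were -0.99 and -0.31, a difference of 0.68 (SE 0.19, limma adjusted p = 0.0260). For both genes it was the progenitor level that was lower in clones 15 to 26. Mrps21 instead differed in monocytes, with 453 and 645 TPM against progenitor means of 409 and 409 TPM; its changes were 0.14 and 0.67, a difference of 0.53 (SE 0.15, limma adjusted p = 0.0196).

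The count rested on single clones. It was 10 without clone 20 (all genes: 14.6%), 9 without clone 21 (18.4%), 6 without clone 24 (27.4%) and 6 without clone 8 (21.9%). Mrps36 no longer passed when any of clones 2, 3, 7, 9, 10, 13, 17, 18, 19 or 23 was left out. In an alternative chosen after the data were seen, without clones 20, 21 and 24, the interaction passed for 35 genes (44.9%; 44.5% of all genes tested). Without these clones 66 genes fell and 2 rose between states, with a median of -0.60 (all genes: 39.8% and 30.6%).

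**Figure D5:**
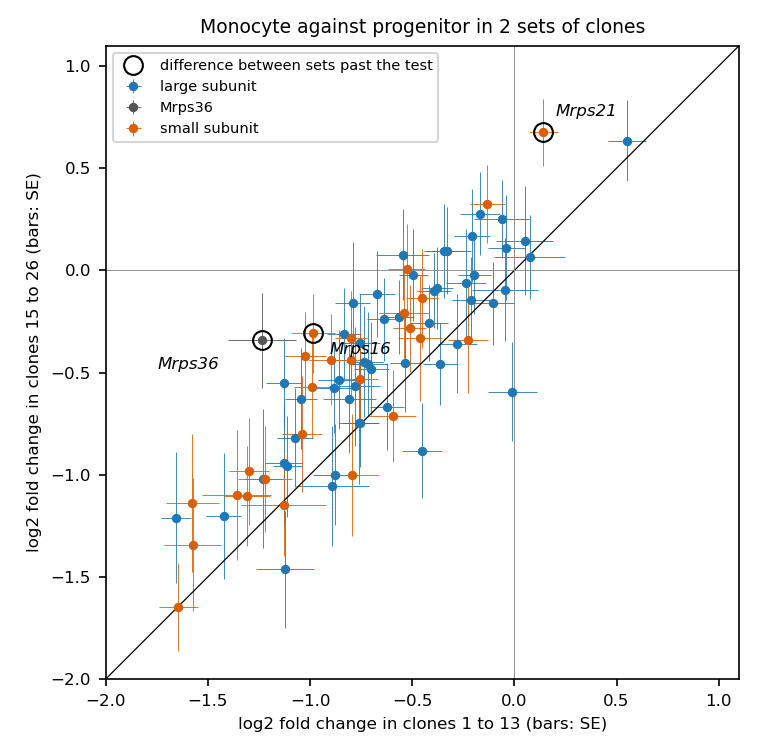
Log2 fold change between states in clones 1 to 13 (x axis) and in clones 15 to 26 (y axis), with standard errors, for each of the 78 genes; the diagonal marks equal change and circles mark the 3 genes whose difference passed the test. Of the 78 points 62 lie above the diagonal, with a median difference of 0.24, against 29.0% and -0.29 over all genes tested, and the vertical error bars are the longer ones.

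More genes of the family passed a test between the 2 runs of clones in progenitors than in monocytes, as was also the case over all genes tested. Compared directly, 23 genes were lower in progenitors of clones 15 to 26 and 4 were higher (Mrpl23, Mrps2, Mrps18b and Mrpl44), while over all genes tested 10.9% were lower and 28.5% higher. The median difference was -0.15 for the family and 0.22 for all genes tested. The largest differences were those of Mrps36 (-0.97, limma adjusted p = 0.00774) and Mrps23 (-0.94, limma adjusted p = 8.00e-05), whose progenitor means were 159 and 87.3 TPM. In monocytes 1 gene passed, Mrps21, which was higher in clones 15 to 26 (0.50, limma adjusted p = 0.0101); over all genes tested 3.19% were lower and 3.92% higher.

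A few libraries held most of the family's extreme values. The same counts were not made over all genes tested, so they do not set the family apart from other genes. The progenitor library of clone 24 had the lowest level of 50 of the 78 genes and that of clone 21 of 19. The progenitor library of clone 21 also had the highest level of 15 genes. The monocyte library of clone 21 was lowest for 32 genes and that of clone 20 for 21, while the highest monocyte values came from clone 22 for 28 genes and clone 24 for 23. In clone 24, 5 of 78 genes were lower in its monocyte library, and its median difference was 0.84, against 1.14 over all genes tested in that clone. The summed level of the family was higher in the monocyte library of clone 24 and also of clones 17 (4803 and 5217 TPM), 22 (4952 and 5173 TPM) and 23 (5078 and 5416 TPM). The progenitor library of clone 24 had 8240 genes at 1 TPM or more, the fewest of the 48, the lowest sum of progenitor markers (222 TPM) and the lowest sum of proliferation markers of its group (106 TPM). That of clone 21 had the most genes listed at 0 of the 48 (23247), and gene models named Gm took 40.1% of its TPM. Its monocyte marker sum was the highest of its group (1333 TPM), with progenitor and neutrophil marker sums of 231 and 6074 TPM.

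Among monocyte libraries, those of clones 20 and 21 had the lowest summed family levels and the highest neutrophil marker sums. In clones 20 and 21 the median difference of the 78 genes was -1.26 and -1.24, and the 5 neutrophil markers summed to 152075 and 183022 TPM, or 15.2% and 18.3% of 1000000. Over all genes tested the medians of these clones were -0.13 and 0.10. Clone 9, next in this order with 149490 TPM, had a median difference of -0.74 (0.30 over all genes tested). In clones 17 and 22 the median differences were -0.07 and -0.08, with 44 and 41 genes lower, and -0.10 and -0.30 over all genes tested. Their monocyte libraries had neutrophil marker sums of 3292 and 339 TPM, and the highest progenitor marker sums of the monocyte group, 245 and 334 TPM against a group median of 43.8 TPM. Clone 23 had a neutrophil sum of 1856 TPM and a progenitor marker sum of 13.8 TPM. Its median difference was -0.45 (-0.60 over all genes tested). Clones 18, 24 and 26 had neutrophil sums of 15100, 10004 and 13051 TPM. Their median differences were -0.46, 0.84 and -0.61 (-0.49, 1.14 and -0.45 over all genes tested). The clones did not stand in a strict order of neutrophil sum. Clones 1 and 15, with median differences of -0.79 and -0.70 (0.17 and -0.15 over all genes tested), had neutrophil sums of 51619 and 33187 TPM. Both lay under the group median of 72868 TPM. Clones 16 and 19, at -0.46 and -0.38 (-0.16 and -0.67), had 88075 and 81010 TPM. Clone 8, at -0.87 (-0.83), had 82966 TPM. The part of these markers in the change was not tested.

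Monocyte libraries varied more among themselves than progenitor libraries. The SD of log2(TPM + 1) was larger in monocytes for 62 of the 78 genes (79.5%; 54.6% of all genes tested), with medians of 0.322 in progenitors and 0.436 in monocytes (0.565 and 0.600 over all genes tested). Within clones 1 to 13 the medians were 0.157 and 0.243, and within clones 15 to 26 they were 0.384 and 0.568.

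Whether a clone that is high for a gene as a progenitor is also high as a monocyte was asked with correlations between states, with each run of clones centred on its own mean. Of 62 genes with enough spread to test, none passed a permutation test with 100000 pairings after adjustment, against 0.191% of the 10473 genes tested. At an unadjusted p under 0.05 there were 7 (6.83% of all genes tested), 5 with a positive correlation and Mrpl46 and Mrps24 with a negative one, and with Spearman's correlation none passed (0.115%). The median correlation was 0.00 for the family and 0.08 for all genes tested. Mrpl48, named after its values were seen, had the highest Pearson correlation, 0.78 over 24 clones (permutation p = 1.20e-04, adjusted p = 0.0598), with a Spearman rho of 0.41 (permutation p = 0.0620). It was the 1 gene of the family that passed with no centring (adjusted p = 0.0176; 2.72% of all genes tested), with a pseudocount of 0.1 (adjusted p = 0.0447; 0.269%) and after the rescaling (adjusted p = 0.0141; 0.253%), each by permutation. The Pearson correlation was 0.83 in clones 1 to 13, 0.76 in clones 15 to 26 and 0.62 without the 2 clones farthest from the median.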

How the data were processed

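RNA-seq of 24 progenitor and 24 monocyte libraries was analysed from 1 table of TPM per gene symbol that the authors deposited; Salmon and the mm10 build are named per the submitters' processing notes, while versions, the annotation and how transcripts became gene values are not given in the sources used. TPM keep no depth, so counting error is unknown, and a listed 0 may be a failed estimate. Of 34643 table entries, 26 with calendar dates for names were left out. The members and lists were chosen with earlier results of these data known.

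Genes whose mean reached 1 TPM were tested on log2(TPM + 1) with limma 3.58.1 (R 4.3.3), clone as a fixed block and a mean-variance trend, with two-sided tests at an adjusted p of 0.05. Clone effects between states were tested by 100000 pairings within each run of clones, for genes whose SD reached 0.25 in each state. Each clone has 1 library per state, so p-values measure the spread between clones. The pairing by clone number comes from the series design text. Deviations of the 2 libraries of a clone correlated above 0.1 in 18 of 24 clones, and in 12 with each run centred. Of these 12, only 2 were among the 13 clones numbered 1 to 13, and 10 were among the 11 numbered 15 to 26. Within clones 1 to 13 the pairing therefore rests on the design text. No pair of libraries was identical (highest correlation 0.992). The scripts were tested on simulated data.

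Genes were named by rule: the 5 largest falls and rises seen in at least 20 clones, the 4 highest and 3 lowest mean levels, the members past the interaction test, the Mrps18 paralogs, Mrps36 and Mrpl12, up to 5 abundant genes that did not pass, and up to 2 genes per other list with Myc, Ppargc1b and Tfam. Alternatives changed the pseudocount, filter, block, scaling and clones.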

Additional observations from a re-analysis of the deposited data

Results flagged for a closer look

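For 3 genes the change between states differed between clones 1 to 13 and clones 15 to 26 by the interaction test in limma. Mrps36 differed by 0.89 on the log2 scale (adjusted p = 0.0344), Mrps16 by 0.68 (adjusted p = 0.0260) and Mrps21 by 0.53 (adjusted p = 0.0196). The change was the more positive in clones 15 to 26 for each. What sets the runs of clones apart is not named in the labels, and 11.5% of all genes tested passed the same test. Of those 1268 genes, 1084 had the more negative change in clones 15 to 26.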

How the results depend on the processing

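The count of 59 genes that fell was 57 to 63 when any 1 clone was left out and 25 in clones 15 to 26 alone. Of all 11072 genes tested, 3875 to 4374 fell with 1 clone left out and 3031 in clones 15 to 26 alone. The 2 genes that rose became 1 (Mrpl14) after leaving out mitochondrial, Gm and pseudogene transcripts, after centring on the median, and in clones 1 to 13 alone. Without the replicate block 58 genes fell and 2 rose, and with clone as a random effect 60 and 2, Mrps17 passing in the latter (limma adjusted p = 0.04998). Over all genes tested 3924 fell and 3512 rose without the block, and 4036 fell and 3601 rose with the random effect.

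The interaction passed for 2 to 10 genes when 1 clone was left out (6.55 to 27.4% of all genes tested), 5 with a pseudocount of 5 (12.4%), 5 after the rescaling (15.4%), 10 without clones 19, 21, 24 and 26 (26.5%), and 35 without clones 20, 21 and 24 (44.5%), an alternative chosen after seeing the data. Clone differences kept between states passed for 1 gene, Mrpl48, with no centring (2.72% of all genes tested), 1 with a pseudocount of 0.1 (0.269%) and 1 after the rescaling (0.253%). The cause of these shifts was not tested.

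Under the rescaling or in 1 run of clones alone the sign turned for 11 of the 78 genes, of which only Mrps15 had passed (-0.28 in all clones, 0.0081 in clones 15 to 26). Among the genes named above, signs turned for Mrps18c under the rescaling (-0.17), centring (-0.0021) and in clones 1 to 13 (-0.13), Mrpl33 under the rescaling (-0.17) and in clones 1 to 13 (-0.062), Mrpl52 in clones 15 to 26 (0.077), and Mrpl58 in clones 15 to 26 (0.17) and without clone 20 (0.0024; leaving out single clones gave -0.10 to 0.00). Without depth, low genes such as Mrpl23 have unknown counting error.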
